A study of Homo sapiens with 62 samples.

Results

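The 9 mucin genes followed here are MUC1, MUC3A, MUC4, MUC13, MUC16, MUC17, MUC20, MUC5AC and MUC5B, taken by gene name from the 29794 genes counted in each table, with no threshold on a measured value. The study asked which RNAs stop being made soon after loss of KLF5, a zinc-finger transcription factor of epithelia, in lines derived from human pancreatic ductal adenocarcinoma (PDAC). SLAM-seq libraries were made from AsPC-1 cells (42 libraries) and T3M-4 cells (20 libraries): 4-thiouridine was added for the last 2 h before harvest, and reads from RNA made in that window carry T>C conversions. All groups, controls included, carried FKBP12-F36V-FLAG-KLF5 together with the guide sgEndogenousKLF5, so that the tagged protein was their source of KLF5. These lines were made by lentiviral delivery and drug selection and are populations, not clones.

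In AsPC-1 the groups were dTAG (the degrader dTAGv-1, 4 h, 10 libraries), NEG (dTAGv-1-NEG, its inactive analog, 4 h, 10 libraries), CB-6644 (an inhibitor of the RUVBL1/2 ATPases, 5 libraries at 4 h and 4 at 12 h), DMSO (the solvent, 5 libraries at 4 h and 4 at 12 h) and NVP-2 (an inhibitor of the transcription kinase CDK9, 4 h, 4 libraries). T3M-4 cells received the same 5 agents for 4 h, with 4 libraries in each group. A replicate number such as 1.2 gives the experiment before the point and the library after it. Nothing in the labels says that libraries of 1 experiment came from separate cultures, so p-values measure the spread between libraries, which may in part be technical.

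Mucins are large glycoproteins whose repeats rich in serine, threonine and proline carry dense O-linked sugar chains. Most of the 9 are anchored in the apical membrane, where they form the glycocalyx of ducts and gut and can signal through short cytoplasmic tails, while MUC5AC and MUC5B are secreted and polymerise into mucus gels. Normal pancreatic ducts display MUC1, and MUC4, MUC5AC and MUC16 are known from ductal cancer and its precursor lesions.

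The genes lie on 5 chromosomes (GRCh38, GENCODE v44 records), and reads were counted over their 3′UTR exons. MUC1 is at chr1:155185824-155192916 on the minus strand. MUC13 is at chr3:124905442-124953819 (minus), and MUC20 (chr3:195720884-195741123, plus) and MUC4 (chr3:195746765-195811973, minus) are neighbours on the same chromosome. MUC3A (chr7:100949534-100968347) and MUC17 (chr7:101020072-101058859) lie on the plus strand of chromosome 7, and MUC5AC (chr11:1157953-1201138) and MUC5B (chr11:1223066-1262172) on that of chromosome 11. MUC16 is at chr19:8848844-9010390 (minus). The span of the annotated 3′UTRs of MUC1, introns included, overlaps a second annotated gene on its own strand. The same holds for MUC20 and MUC17, so part of the reads of these genes could belong to the partner. The span of MUC3A overlaps a gene record on the opposite strand only.

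Promoter sequence is shown for MUC1, MUC17 and MUC16, whose labelled reads were lower after KLF5 degradation in the results that follow, and for MUC13, whose labelled reads in AsPC-1 were not. RefSeq (GRCh38.p14) had an entry for 6 of the 9 genes, and MUC20, MUC5AC and MUC5B had none. Each line holds the 250 bases before an annotated start, written 5′ to 3′ on the gene's strand, and capitals mark every match on either strand to GGGNGNGGC or CACCC, 2 forms of the GC-rich and CACCC boxes that Krüppel-like factors bind. Matches may overlap, as they do once in MUC17. The windows are chr1:155192916-155193165 (MUC1), chr7:101019831-101020080 (MUC17), chr3:124934752-124935001 (MUC13) and, for MUC16, chr19:9065752-9066001 (upstream start) and chr19:9010410-9010659 (downstream start).
MUC1: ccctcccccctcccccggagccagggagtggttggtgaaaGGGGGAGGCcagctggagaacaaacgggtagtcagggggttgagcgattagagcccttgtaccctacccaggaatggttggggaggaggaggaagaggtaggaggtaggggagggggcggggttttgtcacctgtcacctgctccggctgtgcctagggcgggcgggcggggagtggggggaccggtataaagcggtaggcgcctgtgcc
MUC17: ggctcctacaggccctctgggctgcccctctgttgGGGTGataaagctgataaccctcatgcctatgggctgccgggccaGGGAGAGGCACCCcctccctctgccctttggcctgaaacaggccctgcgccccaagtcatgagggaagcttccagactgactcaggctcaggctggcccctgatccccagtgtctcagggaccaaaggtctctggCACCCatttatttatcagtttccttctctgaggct
MUC16 upstream start: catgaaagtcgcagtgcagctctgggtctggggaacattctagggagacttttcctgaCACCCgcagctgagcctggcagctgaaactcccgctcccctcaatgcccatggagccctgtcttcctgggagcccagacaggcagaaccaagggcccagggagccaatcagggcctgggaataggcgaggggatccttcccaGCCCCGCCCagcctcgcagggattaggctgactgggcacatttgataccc
MUC16 downstream start: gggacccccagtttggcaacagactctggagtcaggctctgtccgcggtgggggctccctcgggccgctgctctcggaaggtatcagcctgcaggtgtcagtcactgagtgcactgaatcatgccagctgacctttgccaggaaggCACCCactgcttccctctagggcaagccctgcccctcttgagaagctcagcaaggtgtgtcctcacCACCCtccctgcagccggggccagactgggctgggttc
MUC13: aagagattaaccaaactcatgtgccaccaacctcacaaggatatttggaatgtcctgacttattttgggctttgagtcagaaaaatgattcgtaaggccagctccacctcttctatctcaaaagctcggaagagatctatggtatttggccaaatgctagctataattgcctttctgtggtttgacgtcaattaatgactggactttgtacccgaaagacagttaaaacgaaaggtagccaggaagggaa
MUC1 held 1 match to GGGNGNGGC and 0 to CACCC. MUC17 held 1 and 3, the upstream window of MUC16 1 and 1, its downstream window 0 and 2, and MUC13 0 and 0. Of the entries not shown, MUC3A, which changed little after dTAG in AsPC-1, held 0 and 1, and MUC4, nearly unread in both lines, 2 and 5. The genes shown were picked by their labelled reads after dTAG, so the counts do not compare genes that fell with genes that did not. Of 35116 promoters of the same length, 10113 (28.8%) held GGGNGNGGC and 19211 (54.7%) held CACCC. A match is a description of these letters, and KLF5 binding was not measured here.

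AsPC-1 libraries held 8296433 to 18311982 T>C reads and T3M-4 libraries 13562612 to 27982537, falling to between 2240998 and 3517345, and 3714015 and 4982006, with NVP-2. All-reads totals were at least 82676553. The share of T>C reads in a library was 7.58% to 10.6% in AsPC-1 and 11% to 14.3% in T3M-4 without NVP-2. It was 1.35% to 1.91% and 1.80% to 2.80% with it. The all-reads column of AsPC-1 dTAG library 3.1 was left out, so all-reads values and labelled shares have 9 dTAG libraries there. T>C CPM is T>C the T>C count of a gene scaled to counts per 1e6 T>C reads of the library (CPM), all-reads CPM the same for all reads, and the labelled share of a gene is its T>C reads as a percentage of its own reads. A call is an adjusted p under 0.05 (edgeR quasi-likelihood test, Benjamini-Hochberg over all genes tested). dTAGv-1 removes KLF5 protein, which these data do not measure, so KLF5 RNA is no check of the degrader. T>C CPM of KLF5 was 105 ± 20.2 (SD, n = 10) with NEG and 156 ± 18.3 (n = 10) with dTAG in AsPC-1, and 559 ± 44.4 (n = 4) and 1097 ± 75.5 (n = 4) in T3M-4. In bulk libraries such as these, fewer cells of a kind and less RNA per cell cannot be told apart.

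The lines made different mucins. All reads of the NEG libraries were compared, T3M-4 (n = 4) against AsPC-1 (n = 10), and 62.2% of 15928 genes were called. Of the 7 mucins that passed the filter on low counts, 6 were called, 1 higher in T3M-4 and 5 lower, with a median log2 difference of -3.79 beside 0.06 over all genes tested. Each line was 1 engineered population, so the comparison is of these populations.

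MUC16, the giant membrane mucin that carries a serum tumour antigen, was a T3M-4 transcript. Its all-reads CPM was 16.4, 21.0, 14.5 and 11.9 in the T3M-4 NEG libraries. In AsPC-1 NEG libraries it lay between 0 and 0.0936 with a median of 0.0260, and 27 of the 41 AsPC-1 libraries with all reads had none. No library of one line reached the range of the other (log2 difference 9.04, SE 0.61, adjusted p = 6.58e-09 by edgeR), a value that depends on how near-zero counts are handled. MUC4, a membrane mucin that partners the receptor ERBB2, was all but unread in AsPC-1, with 0 T>C reads in 42 of 42 libraries and 0 reads of any kind in 40 of 41. In T3M-4 it was at 0.112 ± 0.0566 all-reads CPM (SD, n = 4 NEG) and did not pass the filter. MUC20, a small membrane mucin, was also below the filter, at 0.290 ± 0.182 all-reads CPM (n = 4) in T3M-4 against 0.00958 ± 0.0151 (n = 10) in AsPC-1.

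The intestinal-type membrane mucins were AsPC-1 transcripts. All-reads CPM of MUC17 ran from 4.88 to 121 in AsPC-1 NEG libraries, with a median of 31.3, and from 0 to 0.0450 in T3M-4 NEG libraries (log2 difference -11.51, SE 1.38, adjusted p = 3.2e-06 by edgeR, again dependent on near-zero counts). MUC3A, its relative on the same chromosome arm, was at 11.3 ± 3.64 (SD, n = 10) in AsPC-1 and 0.205 ± 0.121 (n = 4) in T3M-4 (-5.88, SE 0.54, adjusted p = 1.83e-07 by edgeR). MUC13, a membrane mucin of gut and duct epithelium, was at 12.4 ± 7.09 in AsPC-1 and 1.4 ± 0.828 in T3M-4 (-3.22, SE 0.64, adjusted p = 0.000403 by edgeR). The ranges of all 3 genes were apart between the lines.

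MUC1 was present in both lines and was not called between them. Its all-reads CPM ran from 26.0 to 270 with a median of 43.1 in AsPC-1 NEG libraries and was 49.0, 69.9, 19.8 and 22.5 in T3M-4, so the ranges overlapped (log2 difference -1.17, SE 0.64, adjusted p = 0.124 by edgeR). The gel-forming pair was low in both lines and lower in T3M-4. MUC5AC had a median of 1.32 all-reads CPM in AsPC-1 (range 0.0415 to 22.3) and 0.336 ± 0.114 (SD, n = 4) in T3M-4. The test called it lower in T3M-4 (-3.84, SE 1.57, adjusted p = 0.0445 by edgeR) although the ranges overlapped, and on T>C reads the call was lost (-2.12, adjusted p = 0.191 by edgeR). MUC5B was at 1.76 ± 1.24 in AsPC-1 and 0.132 ± 0.148 in T3M-4 (-3.79, SE 0.96, adjusted p = 0.00285 by edgeR).

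**Figure D1:**
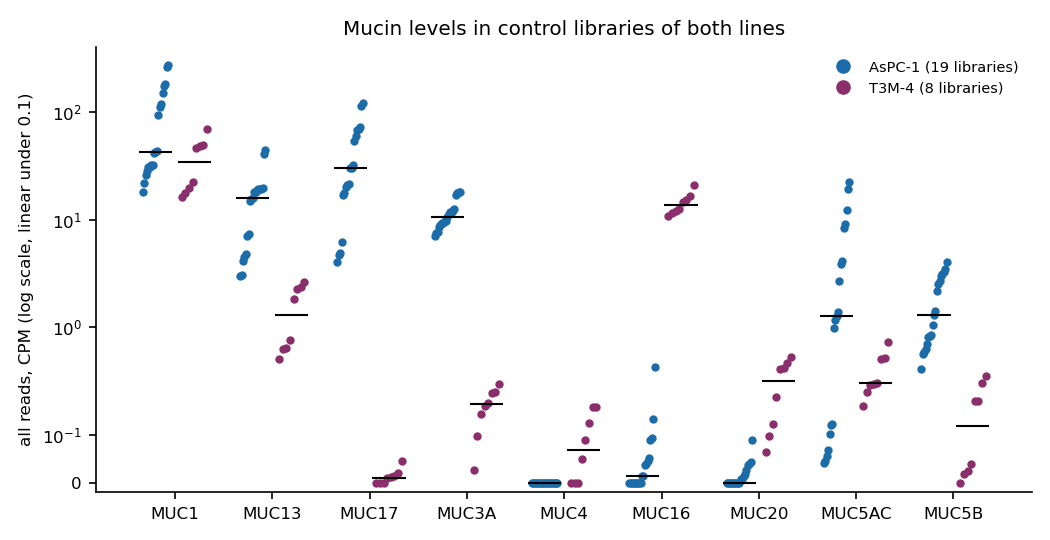
All-reads CPM (log axis) of the 9 mucin genes in the control libraries of AsPC-1 and T3M-4, 1 point per library. MUC16 is high in T3M-4 and near 0 in AsPC-1, MUC17 and MUC3A show the opposite order, and the AsPC-1 points of MUC1, MUC5AC, MUC13 and MUC17 are spread far more widely than those of MUC3A.

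The markers of the lines moved with these levels, and their part in them was not tested. Summed all-reads CPM of the classical PDAC markers was 86.2 to 202 per library in AsPC-1 and 4.44 to 6.73 in T3M-4. That of the basal-like markers was 13.0 to 57.0 in AsPC-1 and 2177 to 3819 in T3M-4. Epithelial markers summed to 3718 to 9210 and 1341 to 2136, although CDH1 among them had the higher median in T3M-4 (32.9 against 12.1) and KRT19 overlapped between the lines. Among the classical markers, the ranges of CDX2 and TFF1 overlapped between the lines. LGALS4 alone ran from 65.1 to 181 in AsPC-1 and weighed most in the classical sum there. Fibroblast markers summed to 2.90 to 18 in AsPC-1 and 6.86 to 9.72 in T3M-4, immune markers to 3.93 to 15.2 and 0.863 to 3.02, and endothelial markers to 0 to 0.249 and 0.774 to 1.59.

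Mucin levels also differed between AsPC-1 cultures given the same treatment. When AsPC-1 libraries were clustered on 500 variable genes, mucins left out, they were cut into 3 culture sets, here A, B and C, which the labels do not name. Each set held several treatments. Sets A and B were both present in experiments 1 and 3, while set C was made up of the libraries of experiment 2 in batch 1. What follows here on mucin levels in the sets is a description with no test. All-reads CPM of MUC1 in control libraries (NEG and DMSO) ran from 93.4 to 270 in set A (median 161, n = 8) and from 18.1 to 43.5 in set B (median 28.1, n = 7), a ratio of medians of 5.72. Set C had 30.8 to 41.8. Sets A and B did not overlap for MUC1.

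The gel-former MUC5AC went the same way, with 2.71 to 22.3 in set A and 0.0415 to 0.127 in set B, a ratio of 128. MUC13 was at 15.0 to 44.7 in set A, 2.99 to 7.30 in set B and 17.9 to 19.6 in set C. MUC17 was the reverse, with 4.06 to 21.4 in set A, 53.4 to 121 in set B and 17.8 to 32.2 in set C, 5.99 times higher in B than in A by the medians. So set A had the high MUC1 and MUC5AC, set B the high MUC17 and the low MUC13, and set C an intermediate MUC17, a low MUC1 and a MUC13 within the range of set A. MUC3A (7.11 to 11.3 in set A, 10.6 to 18 in set B) and MUC5B overlapped between the sets.

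Across the 19 AsPC-1 control libraries, all-reads levels on the log2(CPM + 1) scale correlated at r = 0.946 between MUC1 and MUC5AC, -0.642 between MUC1 and MUC17, and -0.904 between MUC13 and MUC17. These values describe libraries that share their culture set, and no p is given. Among all genes over the CPM minimum, those closest to MUC1 were ABCC3 (r = 0.958), ALDH3A1 (0.946) and TESC (0.941). Closest to MUC5AC were ALDH3A1 (0.948), FOXP1 (0.940) and SATB1 (0.929). RIPK4 (0.964), GNG11 (0.959) and AJUBA (0.957) were closest to MUC13, and HHLA2 (0.967), DHRS9 (0.962) and GNG4 (0.962) to MUC17. Over the 8 T3M-4 control libraries, MUC16 was closest to DGKE (0.970), DNAJC24 (0.965) and ZNF195 (0.964).

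Degradation of KLF5 in T3M-4 lowered the labelled reads of MUC16. T>C CPM was 12.5, 16.5, 12.2 and 15.7 in NEG libraries 1.1, 1.2, 2.1 and 2.2, and 1.76, 2.36, 1.18 and 2.57 in the dTAG libraries of the same numbers. Every dTAG library was below every NEG library, in both experiments. The means were 14.2 ± 2.17 and 1.97 ± 0.627 (SD, n = 4 each), a log2 fold change of -2.92 (SE 0.31, adjusted p = 0.0058 by edgeR). MUC16 was the 1 mucin called of 4 tested, where 0.834% of 13424 genes were called, and DESeq2 also called 1. It was called with the replicate number as a block (-2.96, adjusted p = 0.0021 by edgeR) and in experiment 1 alone (-2.87, adjusted p = 0.048), and experiment 2 alone gave -2.95 (adjusted p = 0.065).

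All reads of MUC16 changed far less over the 4 h. All-reads CPM was 16.4, 21.0, 14.5 and 11.9 with NEG and 12.9, 11.1, 11 and 13.2 with dTAG, and these overlapped (log2 fold change -0.44, adjusted p = 1 by edgeR). The labelled share of MUC16 was 9.92%, 10.4%, 10.3% and 16.1% with NEG and 1.72%, 3.04%, 1.36% and 2.42% with dTAG. The groups were apart, 11.7% ± 2.96 against 2.13% ± 0.750 (SD, n = 4), with an exact two-sided permutation p of 0.0286, the smallest that 4 against 4 libraries can give, so no gene could pass adjustment (adjusted p = 0.521, 0% of 12252 genes called). In this test 672 of the 12252 genes had an unadjusted p under 0.05. The log2 ratio of the group means was -2.45 for MUC16 and had a median of 0.06 over all genes. T>C counts of MUC16 in T3M-4 were all multiples of 2, so T>C reads entered its total more than once and its counting error is larger than the counts imply. Its all-reads counts had no such common divisor, so its labelled share may not count both kinds of read alike.

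**Figure D2:**
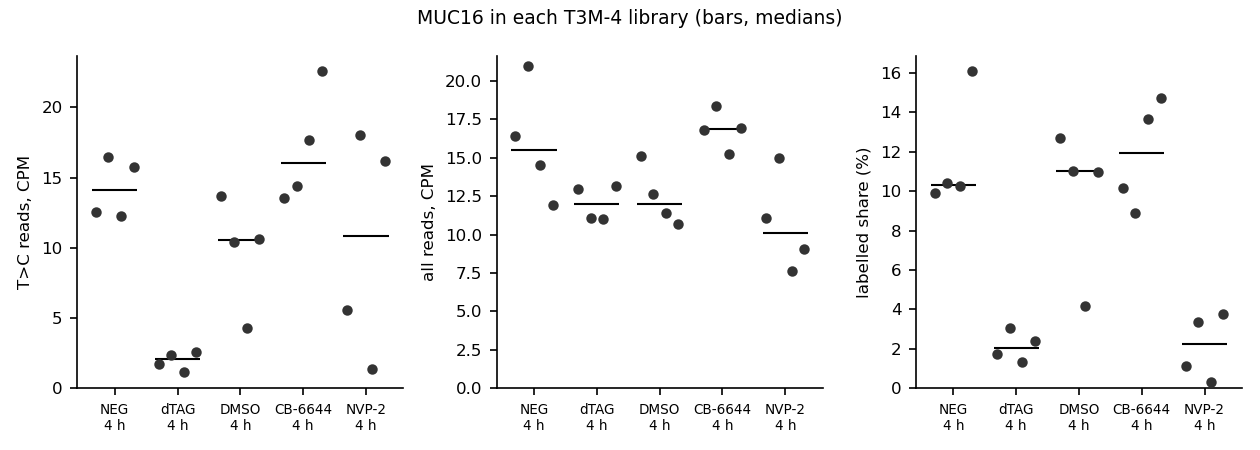
MUC16 in T3M-4: T>C CPM, all-reads CPM and labelled share (%) in each library by treatment group, with group medians as lines. T>C CPM of the 4 dTAG libraries is 1.18 to 2.57, below every NEG library (12.2 to 16.5), while all-reads CPM overlaps.

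The other mucins of T3M-4 were not called after dTAG. MUC1, a membrane mucin whose cytoplasmic tail takes part in signalling, had T>C CPM of 6.81, 10.1, 4.65 and 13.8 with NEG and 8.10, 5.15, 1.68 and 0 with dTAG. Experiment 2 had the widest gap, and the groups overlapped (log2 fold change -1.33, SE 0.92, adjusted p = 0.974 by edgeR). Its labelled share was 1.81%, 1.91%, 2.86% and 7.48% with NEG and 1.23%, 1.33%, 1.42% and 0% with dTAG, and here the groups did not overlap (exact permutation p = 0.0286, the smallest possible, adjusted p = 0.521). Of 12252 genes in that test, 672 had an unadjusted p under 0.05. MUC13 was at 1.29 ± 0.40 and 0.646 ± 0.397 T>C CPM (SD, n = 4), a log2 fold change of -1.07 (SE 0.66, adjusted p = 0.931 by edgeR), and MUC3A gave -0.60 (SE 0.91, adjusted p = 0.999 by edgeR). MUC4, MUC5AC, MUC5B, MUC17 and MUC20 had too few T>C reads in T3M-4 to be tested.

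In AsPC-1, T>C reads of MUC1 were lower with dTAG in each of the 10 pairs of libraries with the same number. The 4 pairs of set A (1.1, 1.2, 3.1 and 3.2) had T>C CPM of 37.4, 45.9, 21.4 and 14.2 with NEG and 14.0, 8.08, 6.89 and 1.49 with dTAG. The 4 pairs of set B (1.3, 1.4, 3.3 and 3.4) had 4.59, 6.76, 2.72 and 0.843 against 1.29, 0.749, 0 and 0. The set C pairs (2.1 and 2.2) had 3.85 and 13.9 against 0 and 1.55. In sets A and C every dTAG library was below every NEG library, narrowly so in set A, and in set B the lowest NEG library (3.4) fell between the dTAG libraries. Over all libraries the groups overlapped, and the dTAG libraries 1.1, 1.2 and 3.1 of set A exceeded every NEG library of set B. How many of all genes were lower in 10 of 10 pairs, or apart within a set, was not counted, so these directions are description only.

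The test without regard to pairs did not call MUC1. Its mean was 15.2 ± 15.5 T>C CPM with NEG and 3.4 ± 4.70 with dTAG (SD, n = 10 each), a log2 fold change of -2.13 (SE 0.81, unadjusted p = 0.0148, adjusted p = 0.231 by edgeR). None of the 5 mucins tested was called, where 2.40% of 11696 genes were, 1 had an unadjusted p under 0.05, and DESeq2 called 0. Libraries of the same number, which also shared their culture set, deviated together in all 10 pairs. With the replicate number as a block 7.41% of genes were called, MUC1 (-2.62, SE 0.34, adjusted p = 0.000202 by edgeR) and MUC17 among them. Within culture sets, MUC1 gave -1.98 (SE 0.39, adjusted p = 0.0467 by edgeR) in set A alone, -3.32 (SE 0.73, adjusted p = 0.0288) in set B alone and -3.48 (SE 1.08, adjusted p = 0.438) in the 2 pairs of set C, where 134 of 12082, 437 of 11529 and 0 of 11845 genes were called. These fits were added after seeing the data. The sets were cut from the same libraries, treated ones included, so the spread within a set is smaller by construction and these p-values are description only.

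All reads of MUC1 were less changed than its T>C reads. In set A all-reads CPM was 172, 270 and 93.4 with NEG and 227, 239 and 46.3 with dTAG in the 3 pairs with both values. In set B it was 42.6, 43.5, 28.1 and 26.0 against 37.5, 38.9, 10.6 and 10.2, and in set C 32.2 and 41.8 against 29.0 and 34.9. Pairs of experiment 3 were the ones with clearly fewer reads, and the log2 fold change was -0.25 (SE 0.60, adjusted p = 0.997 by edgeR), or -0.54 (adjusted p = 0.049 by edgeR) with culture set as a block. The block fit was added after seeing the data, on sets cut from the same libraries, and 767 of 13931 genes were called in it.

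The labelled share of MUC1, taken relative to the gene's own reads in each culture, was lower with dTAG in 9 of 9 pairs. It was 2.05%, 1.68%, 1.05%, 1.5%, 1.06%, 3.08%, 1.47%, 0.769% and 0.274% with NEG and 0.497%, 0.267%, 0.283%, 0.167%, 0%, 0.335%, 0.263%, 0% and 0% with dTAG, in the order 1.1, 1.2, 1.3, 1.4, 2.1, 2.2, 3.2, 3.3 and 3.4. The zeros are 0 of 3094, 0 of 1623 and 0 of 1546 reads, which allow a share of up to 0.0970%, 0.185% and 0.194% for counting error alone. Only NEG library 3.4 lay inside the dTAG range. The means of 1.49% ± 0.778 (n = 10) and 0.201% ± 0.174 (n = 9) differed by -1.29 percentage points (exact two-sided permutation p = 0.000152, adjusted p = 0.00285). Shares fell widely in this contrast: 42.8% of 10980 genes were called and the median log2 ratio over all genes was -0.26, while that of MUC1 was -2.88. Library-wide shares moved the same way, with 7.93% to 10.1% in NEG and 7.58% to 8.67% in dTAG libraries, and their part in the result was not tested.

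**Figure D3:**
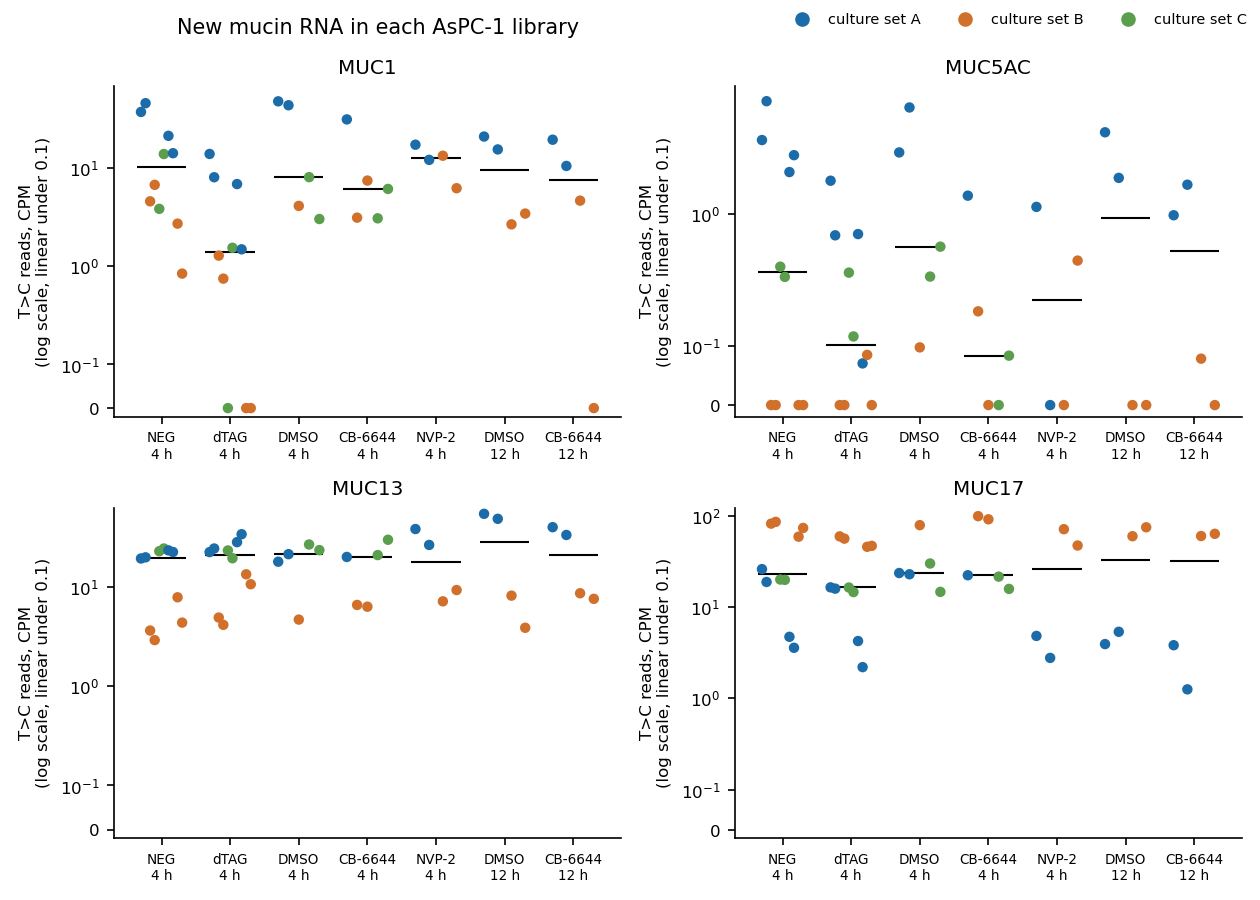
T>C CPM (log axis) of MUC1, MUC5AC, MUC13 and MUC17 in each AsPC-1 library, by treatment group and coloured by culture set. Among NEG libraries those of set A are the high ones in MUC1 and MUC5AC and those of set B in MUC17, and MUC1 is lower with dTAG in 10 of 10 pairs. How many of all genes were lower in as many pairs was not counted.

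MUC17, whose product lines the intestinal brush border, fell less steeply but in as many pairs. T>C CPM with NEG was 82.2, 85.9, 59.1 and 73.7 in set B and with dTAG 59.5, 56.3, 45.8 and 46.9. In set A it was 26.1, 18.9, 4.73 and 3.58 against 16.5, 15.9, 4.25 and 2.2, and in set C 20.1 and 19.9 against 16.4 and 14.6. The dTAG library was lower in 10 of 10 pairs while the groups as a whole overlapped: the log2 fold change was -0.48 (SE 0.58, adjusted p = 0.85 by edgeR) without the block and -0.44 (SE 0.09, adjusted p = 0.00427 by edgeR) with it. The labelled share of MUC17 went from 8.04% ± 2.54 (SD, n = 10) to 5.19% ± 1.19 (n = 9), lower in 9 of 9 pairs (exact permutation p = 0.00144, adjusted p = 0.00914), a log2 ratio of -0.63. In that test 95.2% of 10980 genes had a lower mean share with dTAG and 42.8% were called. The median log2 ratio over all genes was -0.26. How many of all genes were lower in every pair, in T>C CPM or in share, was not counted, so these directions are description only.

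MUC13 did not share the decrease in T>C reads. Its T>C CPM was 19.5, 20.04, 23.6 and 22.7 with NEG and 22.6, 24.6, 28.5 and 34.3 with dTAG in set A, and 3.66, 2.93, 7.92 and 4.40 against 4.95, 4.17, 13.5 and 10.7 in set B. In set C it was 23.1 and 24.6 against 23.5 and 19.6. The dTAG library was higher in 9 of 10 pairs, and the log2 fold change was 0.32 (SE 0.41, adjusted p = 0.868 by edgeR), or 0.41 (SE 0.14, adjusted p = 0.0915) with the replicate block, and turned to -0.04 when T>C reads were scaled by all reads, which moved the all-gene median from 0.03 to -0.22. How many of all genes were higher in as many pairs was not counted. Its labelled share went the other way, from 11% ± 1.73 to 9.44% ± 0.925 (exact permutation p = 0.0328, adjusted p = 0.0677), a log2 ratio of -0.22 close to the all-gene median, and it was called in the paired form (-1.36 points in 9 pairs, adjusted p = 0.0489).

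MUC3A changed little (log2 fold change -0.14, SE 0.17, adjusted p = 0.851 by edgeR), with 8.96 ± 2.09 T>C CPM with NEG and 7.99 ± 1.82 with dTAG. Of the gel-forming mucins, MUC5B gave -0.37 (SE 0.52, adjusted p = 0.882 by edgeR). MUC5AC, the surface mucin of the stomach that ductal cancers often make, did not pass the filter in this contrast and was low in sets B and C. In the 4 pairs of set A its T>C CPM was 3.65, 7.18, 2.09 and 2.80 with NEG and 1.79, 0.693, 0.708 and 0.0710 with dTAG, every dTAG library below every NEG library, and the test in set A alone gave -2.31 (SE 0.59, adjusted p = 0.131 by edgeR). MUC5AC entered that fit, added after seeing the data, through the set where it is high. In it 134 of 12082 genes were called. How many of all genes were apart in set A was not counted, so these values are description only.

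**Figure D4:**
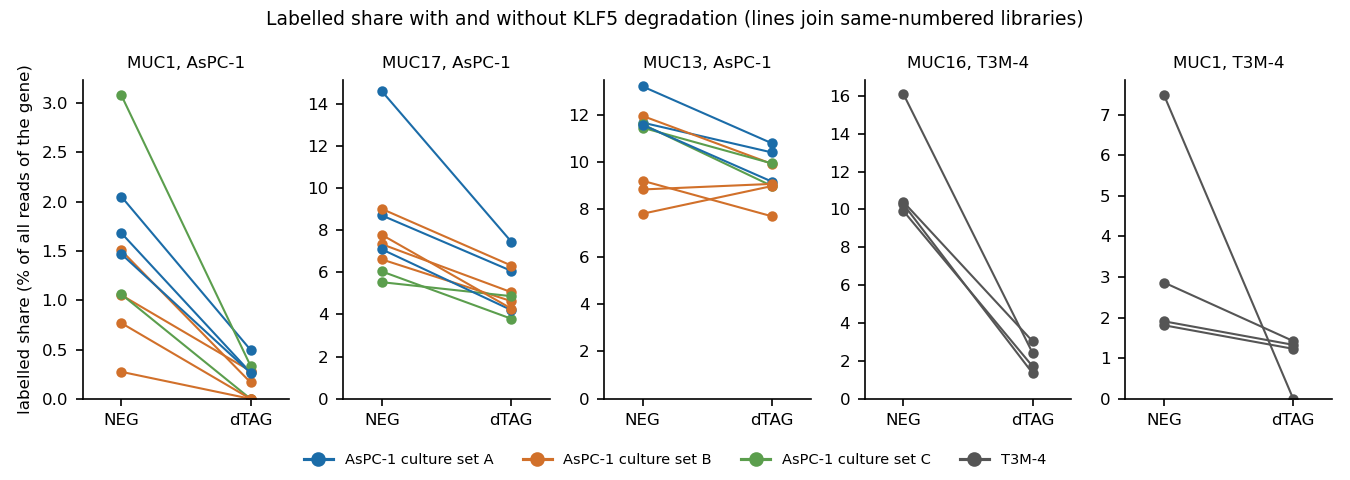
Labelled share (%) in NEG and dTAG libraries of the same replicate number, joined by a line, for MUC1, MUC17 and MUC13 in AsPC-1 and for MUC16 and MUC1 in T3M-4. All lines go down for MUC1 and MUC17 in AsPC-1 (9 of 9 pairs each) and for MUC16 and MUC1 in T3M-4 (4 of 4 pairs each), and 7 of 9 do for MUC13. Of all genes tested, 95.2% had a lower mean share with dTAG in AsPC-1 and 37.9% in T3M-4.

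Whether dTAG acted differently in the lines was tested as an interaction, in which 0.0426% of 14088 genes were called and none of the 7 mucins tested. The smallest p was that of MUC5B (-3.81, SE 1.48, adjusted p = 0.735 by edgeR), which had 0 T>C reads in all 4 T3M-4 dTAG libraries, so its fitted value is no measure of size. It was the 1 mucin with an unadjusted p under 0.05, and this comparison was not run with DESeq2. With culture set as a block, a fit added after seeing the data, MUC13 was called in it (-1.5, adjusted p = 0.047 by edgeR), where 75 of 14088 genes were.

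CB-6644 gave no mucin call at either time. After 4 h in AsPC-1, 0% of 11649 genes were called by edgeR, none of the 4 mucins tested had an unadjusted p under 0.05, and DESeq2 called 0 of them with 1 under that value. T>C CPM of MUC1 was 31.4 in set A, 3.13 and 7.48 in set B and 3.08 and 6.15 in set C with CB-6644, and 48.0 and 43.8, 4.13, and 8.10 and 3.03 with DMSO. The sets held unequal numbers of treated and control libraries, and within a set the values of the treatments lay close together or overlapped but for set A (log2 fold change -1.05, SE 0.85, adjusted p = 0.979 by edgeR). Changes of MUC17 (0.49, SE 0.59), MUC13 (-0.23, SE 0.49) and MUC3A (-0.13, SE 0.25) were within their errors. In labelled share, 0% of 10961 genes were called, and MUC3A had the smallest p of the mucins, 7.43% ± 0.984 against 9.99% ± 1.78 (SD, n = 5, exact permutation p = 0.0397, adjusted p = 0.188). The median log2 ratio of all genes was -0.22.

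After 12 h in AsPC-1, 0% of 12204 genes were called by edgeR, and 0 of the 6 mucins tested had an unadjusted p under 0.05 or were called by DESeq2. MUC1 was at 19.5 and 10.5 T>C CPM with CB-6644 in set A against 21.0 and 15.5 with DMSO, and at 4.67 and 0 against 2.68 and 3.45 in set B. The difference between sets exceeded that between treatments (log2 fold change -0.38, SE 1.07). MUC3A was lower with CB-6644 in 4 of 4 pairs in T>C CPM, all-reads CPM and labelled share, and with the replicate block its log2 fold change was -0.56 (SE 0.24, unadjusted p = 0.0488, adjusted p = 0.851 by edgeR), the 1 mucin with an unadjusted p under 0.05 there. In that fit 710 of 12204 genes had an unadjusted p under 0.05. All reads of MUC17 were also lower in 4 of 4 pairs. How many of all genes were lower in 4 of 4 pairs was not counted, so these directions are description only. Without the block MUC13, MUC17, MUC3A, MUC5AC and MUC5B had log2 fold changes of -0.44 (SE 0.80), -0.25 (SE 1.22), -0.54 (SE 0.46), -1.21 (SE 1.54) and -0.90 (SE 0.89). No gene was called in labelled share (0% of 11547 genes).

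In T3M-4, MUC16 was not called after CB-6644. Its T>C CPM was 13.6, 14.4, 17.7 and 22.6 with CB-6644 and 13.7, 10.4, 4.29 and 10.6 with DMSO, and all treated libraries but the lowest exceeded all controls (log2 fold change 0.74, SE 0.35, unadjusted p = 0.0605, adjusted p = 0.994 by edgeR). All-reads CPM was 16.8, 18.3, 15.2 and 16.9 with CB-6644 and 15.1, 12.7, 11.4 and 10.7 with DMSO, higher in 4 of 4 pairs with the groups just apart (0.39, SE 0.15, unadjusted p = 0.0275, adjusted p = 1 by edgeR), where 453 of 15761 genes had an unadjusted p under 0.05. Its labelled share was 11.9% ± 2.78 against 9.73% ± 3.79 (SD, n = 4, exact permutation p = 0.457), and 0% of 12251 genes were called in share. By edgeR 0% of 13444 genes were called, with 0 of 4 mucins under an unadjusted p of 0.05, and DESeq2 called 0 of them with 1 under that value. MUC1 (-0.21, SE 1.03), MUC13 (0.07, SE 0.65) and MUC3A (0.31, SE 1.01) moved within their errors. No mucin was called when the change with CB-6644 was compared between the lines (6 tested, 0% of 13963 genes called by edgeR, 0 of 6 with an unadjusted p under 0.05, DESeq2 not run).

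NVP-2 cut the labelled share of every mucin with enough reads to test, as it did for nearly all genes. In AsPC-1, 95.5% of 10802 genes were called in labelled share. MUC1 went from 2.06% ± 0.719 (SD, n = 5 DMSO) to 0.411% ± 0.261 (n = 4 NVP-2), MUC13 from 12.4% ± 1.82 to 1.38% ± 0.399, MUC17 from 10.5% ± 1.89 to 1.85% ± 0.558 and MUC3A from 9.99% ± 1.78 to 2.62% ± 1.49. All 4 were called (adjusted p between 0.00997 and 0.0174, exact permutation test), with every NVP-2 library below every DMSO library. Their log2 ratios of -2.32, -3.16, -2.51 and -1.93 stood beside a median of -3.06 over all genes. The AsPC-1 NVP-2 libraries belong to batch 2 and the DMSO libraries to batch 1 in the labels, and batch 2 has no DMSO library at 4 h. Within batch 2, the NVP-2 shares of MUC13 (1.18% to 1.98%), MUC17 (1.09% to 2.43%) and MUC3A (1.25% to 4.74%) were below all those of the 4 NEG libraries of experiment 3 (from 7.82%, 7.09% and 5.33%). That of MUC1 (0.0931% to 0.696%) overlapped them (0.274% to 1.93%) and was below the DMSO 12 h libraries (0.705% to 1.46%).

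In T3M-4, 90.0% of 12053 genes were called in labelled share, and so were the 3 mucins tested. MUC16 went from 9.73% ± 3.79 to 2.15% ± 1.69 (SD, n = 4 each), MUC13 from 11.1% ± 2.74 to 2.62% ± 2.23 and MUC1 from 3.13% ± 3.01 to 0.146% ± 0.293 (adjusted p = 0.0318 for each, exact permutation test). MUC1 had 0 T>C reads in 3 of the 4 NVP-2 libraries. The log2 ratios of MUC16 (-2.18), MUC13 (-2.08) and MUC1 (-4.42) lay on both sides of the all-gene median of -2.98.

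T>C CPM, which is relative to the T>C total of a library, shows how a gene moved relative to this general loss. On that scale MUC3A rose after NVP-2 in both lines, a direction that turned in AsPC-1 when T>C reads were scaled by all reads. In AsPC-1 it went from 10.3 ± 2.26 (SD, n = 5) to 18.5 ± 9.61 T>C CPM (n = 4), a log2 fold change of 1.36 (SE 0.38, adjusted p = 0.0181 by edgeR), and it was the 1 mucin called of 5, where 30.5% of 11498 genes were. Without NVP-2 library 1.2 it was at 1.06 (adjusted p = 0.064 by edgeR) and no mucin was called. Against batch 2 controls it was at 1.51 with the NEG libraries of experiment 3 (adjusted p = 0.022 by edgeR, 3180 of 11209 genes called) and 1.35 with DMSO 12 h (adjusted p = 0.0646, 2828 of 11293 genes called). In T3M-4 it was at 0.666, 0.998, 0 and 0.576 with DMSO and 9.63, 4.22, 3.17 and 4.85 with NVP-2, the groups apart, a log2 fold change of 3.8 (SE 0.94, adjusted p = 0.013 by edgeR), again the 1 called of 4, where 26.7% of 12242 genes were. With totals scaled by all reads the change of MUC3A turned to -1.88 in AsPC-1 (adjusted p = 0.000717) and was 0.76 in T3M-4 (adjusted p = 0.47), where the all-gene medians were -3.30 and -3.11 in place of -0.05 and -0.12.

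The T3M-4 values of MUC3A rest on few reads with an unusual share. From 40% to 64.4% of its reads carried T>C conversions with NVP-2, and 50%, 68%, 0% and 40.6% with DMSO, far above the library-wide 1.80% to 2.80% of NVP-2 libraries, and they did not fall with NVP-2. In AsPC-1, where MUC3A was read far more, its share was 5.33% to 10.9% in NEG libraries.

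No other mucin was called after NVP-2 on the T>C CPM scale. MUC1 in AsPC-1 was at 17.3 and 12.1 T>C CPM in set A and 13.4 and 6.25 in set B with NVP-2, and at 48.0 and 43.8 in set A, 4.13 in set B and 8.10 and 3.03 in set C with DMSO (log2 fold change -0.20, SE 0.76, adjusted p = 0.863 by edgeR), and its sign turned against the batch 2 controls (1.01 and 0.89, not called). MUC17 gave 0.39 (SE 0.78), MUC13 0.68 (SE 0.56) and MUC5B 1.87 (SE 0.83, adjusted p = 0.105 by edgeR). In T3M-4, MUC16 was at 13.7, 10.4, 4.29 and 10.6 T>C CPM with DMSO and 5.57, 18.1, 1.36 and 16.2 with NVP-2, overlapping and widely spread (0.63, SE 0.68, adjusted p = 0.535 by edgeR). Scaled by all reads, 95.3% of 11438 genes in AsPC-1 and 87.1% of 12455 in T3M-4 were called, and on that scale MUC1 (-3.45), MUC17 (-2.89) and MUC13 (-2.45) in AsPC-1 and MUC16 (-2.32) in T3M-4 were called lower, while MUC5B in AsPC-1 (-1.38, adjusted p = 0.139) and MUC1 in T3M-4 (-3.59, adjusted p = 0.0654) were not.

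**Figure D5:**
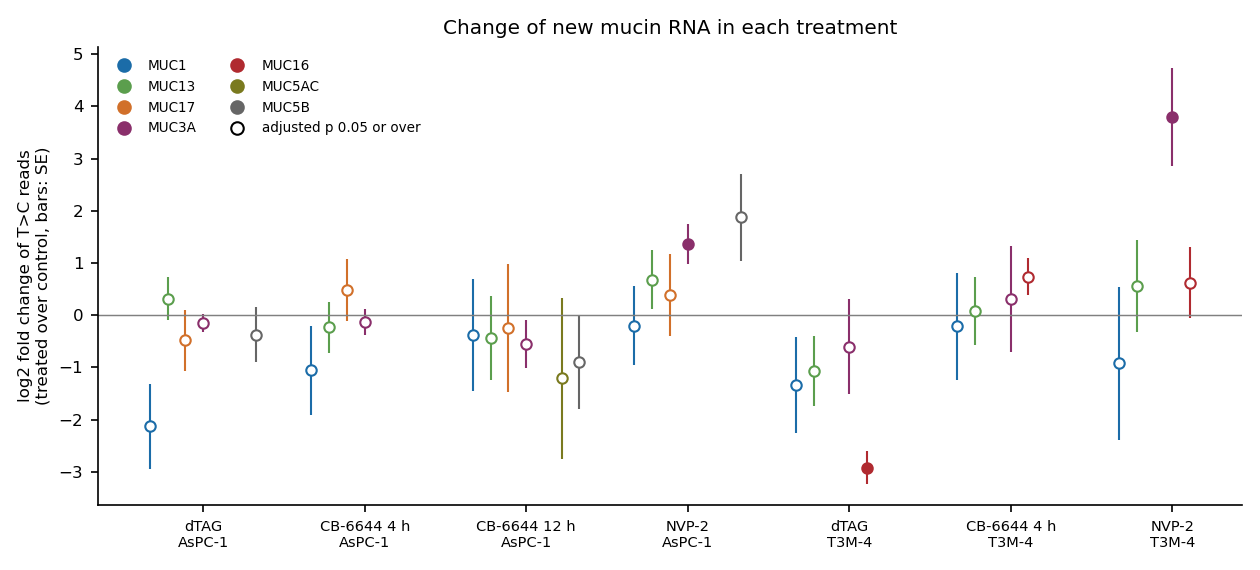
log2 fold change of T>C reads with its SE for each mucin tested in each contrast, with filled points for an adjusted p under 0.05 (edgeR). Filled points are MUC16 after dTAG in T3M-4 (-2.92) and MUC3A after NVP-2 in both lines (1.36 in AsPC-1, which turns to -1.88 with scaling by all reads, and 3.8 in T3M-4).

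No mucin was called between the inactive analog and the solvent. NEG against DMSO at 4 h gave calls for 0% of 12261 genes in AsPC-1 and 0% of 13465 in T3M-4 by edgeR. None of 6 and 4 mucins tested had an unadjusted p under 0.05, and DESeq2 called none of them, with 0 and 1 under that value.

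Genes that build and accompany mucins were read from 3 further lists in the same fits. Of 22 enzymes of mucin-type O-glycosylation, 14 were tested after dTAG in AsPC-1 and 1 was called (2.40% of all genes), GCNT3, the core-branching enzyme of mucin-making tissues (log2 fold change -1.35, SE 0.23, adjusted p = 0.00129 by edgeR). With the replicate block 5 of 14 were called (7.41% of all genes): GCNT3 (-1.35), FUT2 (-1.54), B3GNT3 (-0.64) and ST3GAL1 (-0.31), which extend or cap O-glycan chains, were lower, and GALNT7, which acts on peptides that already carry a sugar, was higher (0.46). In T3M-4, 1 of 20 was called (0.834% of all genes), B3GNT3 (-1.65, SE 0.29, adjusted p = 0.0276 by edgeR). Between the lines 19 of 20 were called, 8 higher and 11 lower in T3M-4, beside 62.2% of all genes. CB-6644 gave no call in the list by edgeR.

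After NVP-2, 30.5% of all genes in AsPC-1 and 26.7% in T3M-4 were called, and the enzymes gave similar shares. In AsPC-1, 3 of 13 were called, GCNT3 (-1.96) lower and the initiating enzymes GALNT1 (1.48) and GALNT2 (1.39) higher. In T3M-4 5 of 20 were called, FUT2 (-3.07) lower and GALNT1 (2.29), GALNT3 (1.64), GALNT2 (1.47) and GALNT7 (1.39) higher, all on the T>C CPM scale. Scaled by all reads, GALNT1 and GALNT2 were at -1.69 and -1.85 in AsPC-1, and GALNT1, GALNT3, GALNT2 and GALNT7 at -0.89, -1.31, -1.48 and -1.51 in T3M-4. Of 20 companions and regulators of secretory cells, 0 of 10 were called after dTAG in AsPC-1 (2.40% of all genes). With the replicate block 2 of 10 were called (7.41% of all genes), CREB3L1 at -0.81 and KLF4 at 0.57. In T3M-4 1 of 11 was called (0.834% of all genes), the transcription factor FOXA2 (1.18, SE 0.16, adjusted p = 0.00925 by edgeR). NVP-2 lowered the transcription factors CDX2 (-3.36 in AsPC-1, -3.53 in T3M-4) and KLF4 (-3.26 and -3.27) in both lines, among 5 of 11 and 3 of 10 called, beside 30.5% and 26.7% of all genes. Between the lines 10 of 16 were called, close to the 62.2% of all genes. Of the 13 other genes with a mucin name, 0 of 2 tested in AsPC-1 and 0 of 3 in T3M-4 were called after dTAG, and MUC12, a membrane mucin, was called lower after NVP-2 in AsPC-1 (adjusted p = 0.00762 by edgeR), with no T>C read in any NVP-2 library there, so no fold is given. Between the lines 2 of 3 of these genes were called, beside 62.2% of all genes.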

How the data were processed

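Counts of T>C reads and of all reads per gene were deposited without normalization, in 1 table of each kind per line. The authors made them from single-end 100-base reads of 3′ end libraries with slamdunk at its default settings on GENCODE v44 3′UTR exons (hg38), summed per gene. The version of slamdunk is not given in the sources used here. No library without 4-thiouridine was analysed here, so the T>C background is unknown. The 18 empty unnamed columns were left out, as was the all-reads column of AsPC-1 dTAG library 3.1, which repeated the T>C column of AsPC-1 DMSO 12 h library 2.

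T>C counts of the groups compared were tested with edgeR 4.0.16 in R 4.3.3 (filterByExpr, TMM, glmQLFit, glmQLFTest), with Benjamini-Hochberg adjustment over all genes and calls under 0.05. SE were taken as the absolute log2 fold change over the root of the F statistic. DESeq2 1.42.0, other scalings, no filter, all reads, blocks, single batches and libraries left out were alternatives. Labelled shares needed 50 reads in every library and were compared by exact two-sided permutation of the group means (Python 3.11.15), adjusted over all genes. Intervals and limits cover counting error only. Both tests were checked on simulated data.

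The groups share replicate numbers. Deviations of same-numbered libraries from their group means correlated at 0.264 to 0.544 in the 10 pairs of dTAG and NEG in AsPC-1, at 0.167 to 0.453 in the 4 of T3M-4, at 0.163 to 0.435 in the 4 of CB-6644 in T3M-4 and at 0.330 to 0.650 in the 4 of CB-6644 at 12 h, over 0.1 in all, so these numbers were taken as pairs from the data, and a fit with the replicate block is given where it changes a call. In the AsPC-1 contrasts taken as paired, same-numbered libraries also shared their culture set, and in T3M-4 their experiment. The correlations cannot tell pairing by number from that sharing. The mucins and lists were chosen with earlier results of these data known. All 9 mucins are reported, KLF5, up to 4 called genes per list and contrast with the largest change, and the 3 genes most like a mucin. GALNT7 in T3M-4 and the genes called with the replicate block were named after their values were seen.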

Additional observations from a re-analysis of the deposited data

Results flagged for a closer look

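Of 106 groups of 4 to 10 libraries tested by Dixon's criterion, 57 for T>C CPM and 49 for labelled share, 11 held a library apart from the rest, where chance alone marks about 1 in 20. MUC1 accounted for 4. In AsPC-1 with CB-6644 at 4 h, library 1.1 had 31.4 T>C CPM of MUC1 beside 3.08 to 7.48 in the others, and it was the 1 library of culture set A there. In T3M-4, dTAG library 2.2 had a MUC1 share of 0% beside 1.23% to 1.42%, and NVP-2 library 1.2 had 15.3 T>C CPM and a share of 0.585% beside 0 in the other 3.

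The labelled share of MUC16 was 16.1% in T3M-4 NEG library 2.2 and 9.92% to 10.4% in the others. In AsPC-1, MUC17 was at 79.1 T>C CPM in DMSO 4 h library 1.3, the 1 control of set B at that time, and at 14.7 to 30.05 in the others, and its share was 14.6% in NEG library 1.1 and 5.53% to 9.01% elsewhere. MUC13 had a share of 1.98% in AsPC-1 NVP-2 library 1.1 against 1.18% to 1.19%, and 1.89 T>C CPM in T3M-4 NEG library 1.2 against 1.06 to 1.11. MUC5AC was at 7.18 T>C CPM in AsPC-1 NEG library 1.2 and 0 to 3.65 in the rest. MUC5B had a share of 25.0% in AsPC-1 NEG library 2.1, from 20 of 80 reads (95% Wilson interval 16.8% to 35.5%), against 2.29% to 13.0%.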

How the results depend on the processing

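Of 724 alternative fold changes, 695 stayed on their side of the threshold, 12 lost and 12 gained a call, and 5 reversed with a call. The sign changed in 61, mostly of values that were not called. Of 271 alternative shares, 1 gained a call and 8 changed sign. The remaining 270 stayed on their side where an adjusted p was computed. Pooled shares and those with a library left out had none, and counted as the same if they moved by no more than the SD of the groups. No mucin was called after dTAG in AsPC-1 over all libraries without a block. The replicate block gave 2, culture set as a block 2, set A alone 1, set B alone 1 and all reads with the set block 1, beside 867, 911, 134, 437 and 767 genes in all. In T3M-4 the 1 call after dTAG became 0 on all reads and 0 in batch 2 alone. The 1 call after NVP-2 in AsPC-1 became 4 scaled by all reads, 2 with no filter, 0 on all reads, 0 against DMSO 12 h, 0 in set A alone, 3 on all reads with the set block, and 0 to 1 with a replicate left out (0 without NVP-2 1.2). In T3M-4 it became 0 on all reads, 0 in batch 2 alone, and 1 to 2 with a replicate left out (2 without NVP-2 1.2, which held the MUC1 reads). The line difference of dTAG had 1 call with culture set as a block (MUC13, -1.5, adjusted p = 0.047), beside 75 genes in all. After NVP-2 scaling by all reads reversed MUC13 (-2.45), MUC17 (-2.89) and MUC3A (-1.88) in AsPC-1 and MUC16 (-2.32) in T3M-4, and MUC17 reversed on all reads with the set block (-1.67). Scaling by all reads lowers T>C values by construction where the library share falls; for the other changes the cause was not tested. Set-wise fits, on sets cut from the same libraries, were added after seeing the data, and so was the paired share.

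Over all genes, dTAG calls in AsPC-1 were 281 (227 lower), 493 with DESeq2, 867 with the replicate block and 945 (933 lower) scaled by all reads, and in T3M-4 112, 347 with DESeq2, 298 with the replicate block and 3 on all reads. DESeq2 also called MUC4 and MUC20 between the lines. The replicate block changed no other mucin call. Numbers of CB-6644 in AsPC-1 at 4 h (4 of 5 pairs over 0.1) and NVP-2 in T3M-4 (3 of 4) were not taken as pairs, and the block there left 0 and 1 mucin calls. In these, 3 of 5 and 2 of 4 libraries were closest to their own number. In the contrasts taken as paired, 5 of 10 were for dTAG in AsPC-1 and 2 of 4 in each of the others. T>C reads limit MUC4, MUC20, MUC5B and, in T3M-4, MUC17 and MUC3A.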
